A study of Mus musculus with 6 samples.

Results

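The Hoxb cluster is the group of 10 Hox genes, Hoxb1 to Hoxb9 and Hoxb13, that lie head to tail on mouse chromosome 11. Its transcripts were followed in germline stem cells (GS cells), which are spermatogonial stem cells kept in culture. Members were taken by symbol from a count table of 32285 genes, and all 10 were found and passed the low-count filter that left 14912 genes. The symbols came with the pyruvate and control values already known, so differences between the media are given for these genes as description and support nothing. No p-value is printed for any of the 10 genes, and counts of them past a threshold are description too. The cells were the wild-type (WT) DBA-GFP GS cell line, 1 line in both groups. The control group of 3 libraries came from complete medium, and the second group of 3 libraries from medium labelled 8 mM pyruvate. The labels give neither the composition of the media, nor the time spent in them, nor whether each library had a culture of its own. Test results therefore measure only the spread between these libraries, which may be technical.

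Hox genes encode homeodomain transcription factors that give cells their position along the head-to-tail axis of the embryo. Within a cluster the genes at the 3′ end, here Hoxb1, are switched on earlier and nearer the head than those at the 5′ end, here Hoxb13. Retinoic acid and CDX factors help to open the clusters, Polycomb complexes keep them silent, Trithorax proteins keep them active, and HOX proteins bind DNA with PBX and MEIS partners. In the adult, Hoxb genes are best known in blood stem cells and their progenitors.

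The start regions of 3 Hoxb genes are shown, since only these matched an entry in the RefSeq promoter table (GRCm38.p6). Among them are Hoxb1, with the largest difference between media, and Hoxb8, with the highest level. Each sequence runs 5′ to 3′ from 250 bases before to 50 bases after the annotated start on the plus strand. Capitals mark matches on either strand to the TATA box (TATAAA), the CCAAT box (CCAAT), a joint Hox and Pbx motif (TGATNNAT) or a nuclear receptor hexamer (AGGTCA).
Hoxb1 (chr11:96365508-96365807): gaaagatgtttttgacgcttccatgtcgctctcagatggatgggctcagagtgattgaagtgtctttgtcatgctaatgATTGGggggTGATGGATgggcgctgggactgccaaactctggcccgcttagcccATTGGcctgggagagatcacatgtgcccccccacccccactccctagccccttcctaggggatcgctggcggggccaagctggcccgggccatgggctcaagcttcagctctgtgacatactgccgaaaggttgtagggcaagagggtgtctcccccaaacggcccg
Hoxb4 (chr11:96318017-96318316): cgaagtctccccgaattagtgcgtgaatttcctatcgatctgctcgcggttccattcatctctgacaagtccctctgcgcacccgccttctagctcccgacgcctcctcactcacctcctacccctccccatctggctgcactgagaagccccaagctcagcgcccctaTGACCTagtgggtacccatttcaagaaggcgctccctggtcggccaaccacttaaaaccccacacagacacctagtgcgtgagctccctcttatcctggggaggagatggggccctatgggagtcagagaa
Hoxb8 (chr11:96281655-96281954): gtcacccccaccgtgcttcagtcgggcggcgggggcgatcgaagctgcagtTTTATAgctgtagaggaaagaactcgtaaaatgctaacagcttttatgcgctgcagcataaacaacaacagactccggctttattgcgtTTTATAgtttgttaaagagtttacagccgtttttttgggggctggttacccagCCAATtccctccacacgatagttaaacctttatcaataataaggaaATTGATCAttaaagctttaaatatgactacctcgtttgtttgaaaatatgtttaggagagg
The Hox and Pbx motif was found in the Hoxb1 window, as TGATGGAT from position -162 relative to the start, and in the Hoxb8 window, as ATTGATCA on the plus strand from position -11. It was found in 8.85% of all 32851 windows of this length. The Hoxb8 window held 2 matches to the TATA box, from positions -199 and -110, both on the minus strand and so opposite to the gene. This motif was found in 13.6% of windows, and the other 2 windows held none. CCAAT boxes were found in the Hoxb1 and Hoxb8 windows (37.4% of windows) and the hexamer in the Hoxb4 window (16.3%). The direct repeat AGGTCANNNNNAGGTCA that retinoic acid receptors bind, searched on both strands, was in 0 of these windows and in 3 of the 32851. No matches overlapped. The windows differed in base composition, with 59.3%, 58% and 42.3% G and C and 10, 14 and 13 CpG in Hoxb1, Hoxb4 and Hoxb8, against a median of 7 CpG over all windows.

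The 6 libraries held between 20918312 and 26413080 counts each. At that depth 3 counts, the floor used here, came to 0.116 to 0.143 CPM (counts per 1000000, with library sizes scaled by the TMM method). Hoxb genes had 148 to 3592 counts per library, well above that floor. Floors cover counting error only. Control replicate 2 stood apart from the other libraries: it lay at 36.5 on the first principal component, which held 38.9% of the variance. Pyruvate replicate 1 lay apart on the other side, at -27.2, and the remaining libraries lay between -4.64 and 0.81. Hoxb results are given with and without control replicate 2, and those of other genes only in part. Markers of the labelled cell type were present. All 8 germ cell and all 17 undifferentiated spermatogonia markers were tested and 0 passed, led by Dazl (831 ± 245 CPM in control, 688 ± 96.8 in pyruvate, SD, n = 3 per group) and Piwil2 in the first list and the GDNF receptor genes Ret (640 ± 9.45 and 658 ± 58.7 CPM) and Gfra1 in the second. Summed, they came to 2048 to 2575 and 3495 to 3904 CPM in control and 2091 to 2254 and 3180 to 3679 CPM in pyruvate. At an unadjusted p under 0.05, edgeR had 3 of the 25 higher and 3 lower, against 14.4% of all tested genes in either direction. DESeq2 called Eomes lower, and edgeR without control replicate 2 called Tdrd1 and Zbtb16 higher and Tex101 lower. Gfra1 shares exon sequence with an opposite-strand gene.

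Other cell types express Hox genes too, and GS cells are usually grown on fibroblast feeders, although the labels name none. Of 20 fibroblast markers 18 were tested and 0 passed edgeR. At an unadjusted p under 0.05, which 14.4% of all tested genes passed in either direction, 2 of these markers were higher and 2 lower. Their summed level was 670 to 746 CPM in control and 721 to 763 CPM in pyruvate libraries, ranges that overlap. Without control replicate 2, edgeR called Thy1 lower and Col5a1 and Acta2 higher, and DESeq2 with all libraries called Thy1 lower. Fn1 (319 ± 28.2 and 284 ± 2.76 CPM) and Col5a1 (204 ± 5.68 and 265 ± 33.1 CPM) were its most abundant, and both share exon sequence with opposite-strand genes. The fibroblast proteoglycan genes Dcn and Lum had at most 17 and 11 counts in any library. Summed Sertoli markers stood at 25.2 to 29.2 CPM in control and 23.5 to 29.1 CPM in pyruvate, led by Wt1 and Sox9, with Fshr at 0 counts. Summed Leydig markers stood at 2.82 to 4.003 and 2.64 to 2.86 CPM, nearly all from Star, while Hsd3b1, Insl3 and Lhcgr had 0 counts. Endothelial markers, led by Kdr and Pecam1, stood at 34.7 to 35.9 and 28.3 to 36.8 CPM with Emcn at 0. Macrophage and immune markers, led by Cd68 and Cd14, stood at 5.42 to 8.35 and 5.72 to 8.08 CPM with Adgre1 at 0. A count of 0 allows up to 3 counts. Markers of differentiating spermatogonia, led by Sohlh2 and Stra8, summed to 681 to 748 CPM in control. In pyruvate replicates 1, 2 and 3 they summed to 746, 590 and 568 CPM, so pyruvate replicate 1 was the highest of its group. Of these 6 markers 0 passed edgeR with all libraries. At an unadjusted p under 0.05, 1 was higher and 1 lower, against 14.4% of all tested genes in either direction. Sohlh2, at 373 ± 3.91 and 313 ± 6.12 CPM (adjusted p = 0.163 by edgeR), was called lower without control replicate 2 (adjusted p = 0.0316). The part of any of these cells in the Hoxb values was not tested. In bulk RNA, fewer cells of a type and less RNA per cell cannot be told apart.

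The cluster spanned 174 kb, from 96194316 to 96368256 on the plus strand of GRCm38, and all 10 Hoxb genes in it were detected in every library. Scaled by exon length, levels were highest on the 5′ side of the middle and lowest at both ends and at Hoxb3. In control cells Hoxb8, which holds blood progenitors immature when forced on, had the highest level at 59.3 ± 5.58 CPM per kb of exon (SD, n = 3). Hoxb6 followed at 44.3 ± 4.82 CPM per kb, Hoxb9 at 35.8 ± 1.83 and Hoxb7 at 31.8 ± 2.07. These 4 genes lie side by side. Hoxb4, further toward the 3′ end, stood at 23.5 ± 0.67 CPM per kb, between the lower Hoxb5 (11.5 ± 2.22) and Hoxb3 (5.39 ± 0.61). Hoxb2 stood at 9.60 ± 1.14 and Hoxb1 at 5.70 ± 1.13 CPM per kb. Hoxb13, which lies 77.1 kb from its nearest neighbour Hoxb9, stood at 8.13 ± 0.98 CPM per kb. Across the 10 genes the level per kb had a Spearman rho of -0.54 with the order from Hoxb13 to Hoxb1, given as a description over genes of the same libraries.

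**Figure D1:**
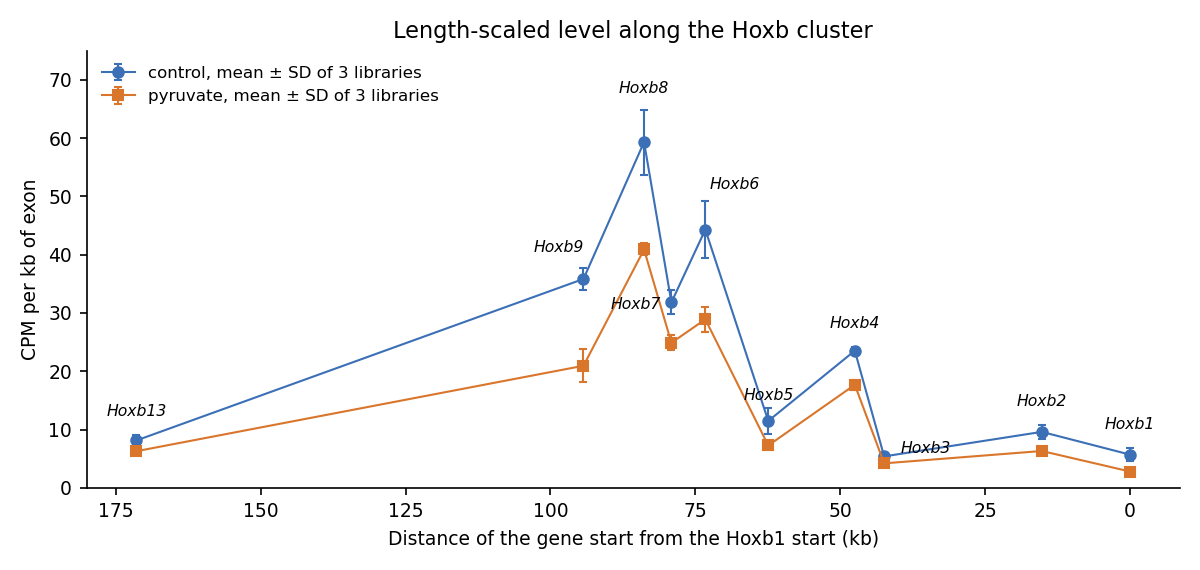
Mean CPM per kb of exon (vertical axis, bars are SD over 3 libraries) of the 10 Hoxb genes against the distance of each gene start from the Hoxb1 start in kb, for control (circles) and pyruvate (squares). Both media show the same outline with Hoxb8 highest, at 59.3 in control and 40.9 in pyruvate, and the pyruvate line below the control line at each gene.

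Most steps in this order were larger than the spread between libraries. Hoxb8 lay above Hoxb6, Hoxb6 above Hoxb9, Hoxb7 above Hoxb4, Hoxb4 above Hoxb5 and Hoxb13 above Hoxb1 with no overlap of libraries in either medium. Hoxb9 and Hoxb7 overlapped in control, where Hoxb9 was higher in 3 of 3 libraries, and were in the other order in 3 of 3 pyruvate libraries. Hoxb1 and Hoxb3 overlapped in control and Hoxb3 was higher in 3 of 3 pyruvate libraries. Hoxb5 was above Hoxb2 in 6 of 6 libraries, and Hoxb2 above Hoxb13 in 4 of 6, with values that overlapped within each medium. The order depended on the length used: by the longest transcript Hoxb7 (38.1 CPM per kb) passed Hoxb9 (35.8), and Hoxb3 (7.19) passed Hoxb1 (6.34).

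All 10 genes had their highest pyruvate library below their lowest control library, as had 10.6% of tested genes. The summed level of the cluster was 596, 518 and 580 CPM in control replicates 1, 2 and 3 and 356, 389 and 403 CPM in pyruvate replicates 1, 2 and 3. The pyruvate mean of 383 ± 23.7 CPM was 67.8% of the control mean of 565 ± 41.3 CPM, and 65.1% of the control mean without control replicate 2 (588 CPM). Fitted log2 fold changes, pyruvate minus control, ran from -1.02 to -0.36 with a median of -0.57, where the median over all tested genes was -0.01.

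**Figure D2:**
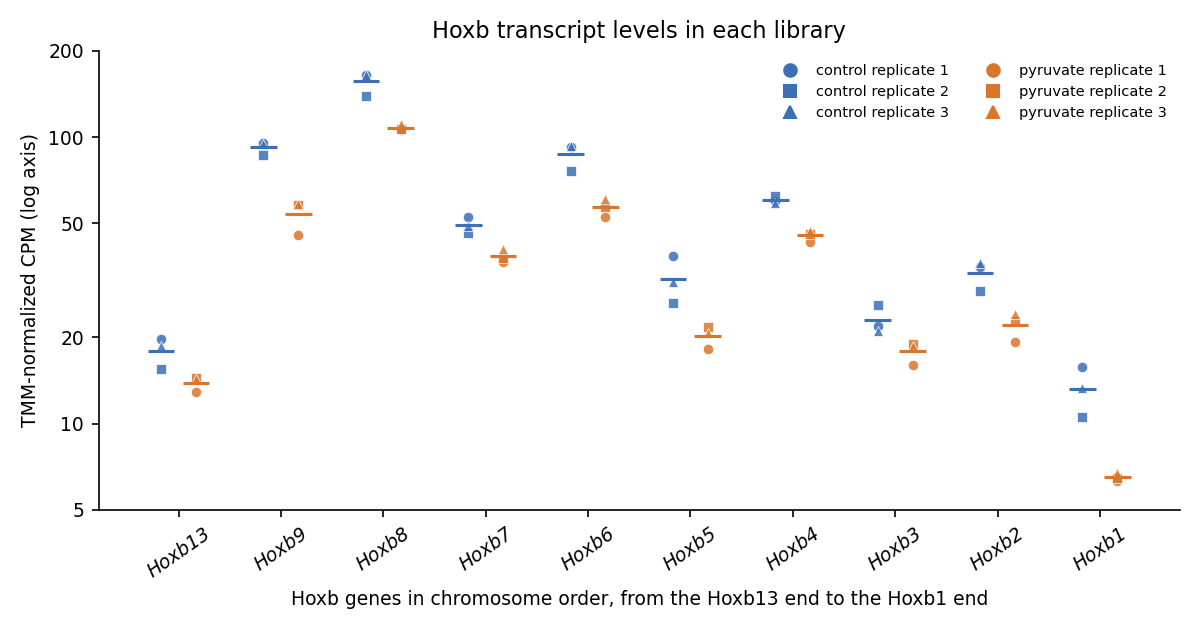
TMM-normalized CPM (vertical log axis) of each Hoxb gene in each of the 6 libraries, with genes in chromosome order and short lines at the group means. For all 10 genes the 3 pyruvate libraries lie below the 3 control libraries, with the widest gap at Hoxb1 and the narrowest at Hoxb13.

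At the 3′ end, Hoxb1 (ENSMUSG00000018973, chromosome 11, 96365752 to 96368256), which sets the identity of the hindbrain segment that gives rise to the facial nerve, showed the largest difference. It stood at 15.8, 10.6 and 13.3 CPM in control replicates 1, 2 and 3 and at 6.29, 6.47 and 6.72 CPM in pyruvate replicates 1, 2 and 3. The control libraries were widely spread and the pyruvate libraries close together, and the lowest control was 1.57 times the highest pyruvate library. The pyruvate mean was 49.1% of control (log2 -1.02, SE 0.16). Hoxb2 (ENSMUSG00000075588, 96350525 to 96354012), which acts beside Hoxb1 in the hindbrain, stood at 35.2, 28.9 and 36.3 CPM in control and 19.3, 22.8 and 24.03 CPM in pyruvate. Control replicate 2 was the lowest control, and the groups did not overlap. The pyruvate mean was 65.8% of control (log2 -0.60, SE 0.13). Of Hoxb2 exon sequence 27.3% is also exon of the antisense gene Hoxb3os. How far this overlap affects its count is not known, since no source used here gives the strand setting of the counting.

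The middle genes, Hoxb3 to Hoxb5, differed from each other in how control replicate 2 behaved. Hoxb3 (ENSMUSG00000048763, 96323326 to 96347930), a hindbrain and pharyngeal patterning gene, stood at 21.9, 25.9 and 21.0 CPM in control and 15.97, 18.9 and 18.7 CPM in pyruvate. Its control replicate 2 was the highest library, unlike in Hoxb1 and Hoxb2, and the lowest control was 1.11 times the highest pyruvate library. The pyruvate mean was 77.9% of control (log2 -0.36, SE 0.12). Exons of Hoxb3os cover 52.9% of Hoxb3 exon sequence on the other strand, the largest such overlap of the 10, with an unknown effect on its count. Hoxb4 (ENSMUSG00000038692, 96318267 to 96321638), known for expanding blood stem cells when forced on, stood at 59.9, 62.3 and 58.9 CPM in control and 43.0, 46.1 and 47.1 CPM in pyruvate. Libraries of each medium lay close together, and the pyruvate mean was 75.1% of control (log2 -0.41, SE 0.080). Hoxb5 (ENSMUSG00000038700, 96303336 to 96306121), a marker of long-term blood stem cells, stood at 38.6, 26.3 and 31.1 CPM in control and 18.2, 21.7 and 20.8 CPM in pyruvate. Its controls were spread as widely as those of Hoxb1, with control replicate 1 high and control replicate 2 low. The pyruvate mean was 63.3% of control (log2 -0.66, SE 0.15), and 3.59% of its exon sequence overlaps the antisense gene Hoxb5os.

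The block of highest levels, Hoxb6 to Hoxb9, held both large and small differences. Hoxb6 (ENSMUSG00000000690, 96292476 to 96301569), a gene of the trunk mesoderm, stood at 92.3, 76.1 and 92.7 CPM in control and 52.6, 56.9 and 61.0 CPM in pyruvate (65.3% of control, log2 -0.62, SE 0.105). Hoxb7 (ENSMUSG00000038721, 96286623 to 96290162), known from the ducts of the developing kidney, stood at 52.5, 46.1 and 48.8 CPM in control and 36.8, 37.8 and 40.7 CPM in pyruvate. Its pyruvate mean was 78.2% of control (log2 -0.36, SE 0.089), beside neighbours on either side with larger differences. Hoxb8 (ENSMUSG00000056648, 96281905 to 96285315) stood at 165, 139 and 165 CPM in control and 106, 106 and 111 CPM in pyruvate (69.0% of control, log2 -0.54, SE 0.087). Control replicates 1 and 3 were nearly equal and control replicate 2 was low. Hoxb9 (ENSMUSG00000020875, 96271457 to 96276595), a patterning gene of the rib cage, stood at 95.02, 86.8 and 94.9 CPM in control and 45.6, 57.7 and 58.5 CPM in pyruvate. Its pyruvate mean was 58.4% of control (log2 -0.77, SE 0.11), the second largest difference in the cluster. No exons of these 4 genes overlap those of another annotated gene.

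At the far 5′ end, Hoxb13 (ENSMUSG00000049604, 96194316 to 96197447), a gene of the tail and the prostate, stood at 19.7, 15.5 and 18.6 CPM in control and 12.9, 14.5 and 14.3 CPM in pyruvate. Control replicate 2 lay only 1.07 times above the highest pyruvate library, the narrowest gap of the 10. The pyruvate mean was 77.3% of control (log2 -0.37, SE 0.12).

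The size of the difference did not follow the position. Across the 10 genes the log2 fold change had a Spearman rho of -0.22 with the order from Hoxb13 to Hoxb1, and -0.10 across the 9 genes without Hoxb13. With the level per kb in control it had a rho of -0.103, and with GC content of the longest transcript 0.16. These values describe genes that share the same 6 libraries. The largest differences were at opposite ends of the main block, at Hoxb1 and Hoxb9, and the smallest at Hoxb7, Hoxb3 and Hoxb13.

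**Figure D3:**
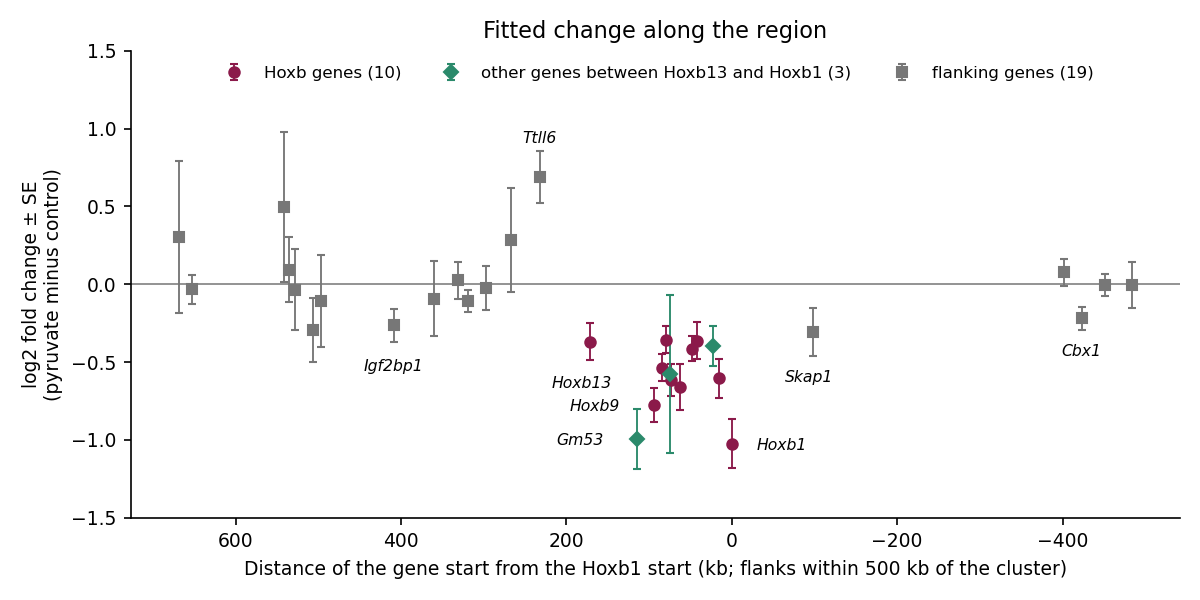
Fitted log2 fold change (vertical axis, pyruvate minus control, bars are SE) of the tested genes in and within 500 kb of the cluster against the distance of the gene start from the Hoxb1 start in kb. The 10 Hoxb genes lie between -1.02 and -0.36 and 3 noncoding genes inside the cluster between -0.99 and -0.40, while the 19 flanking genes lie around a median of -0.02.

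The share of each gene in the Hoxb counts of a library shows the same unevenness without reference to other genes. Hoxb9 made up 16.4% ± 0.41 of Hoxb counts in control and 14.04% ± 1.10 in pyruvate, and Hoxb1 2.33% ± 0.31 and 1.70% ± 0.057 (SD, n = 3). In both the pyruvate libraries lay below all controls. The shares of Hoxb7 (8.71% ± 0.26 and 10.04% ± 0.30) and Hoxb13 (3.17% ± 0.16 and 3.62% ± 0.087) lay above all controls. The other 6 shares overlapped between media, among them that of Hoxb8, with 27.7% ± 0.72 and 28.2% ± 1.32.

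By edgeR's quasi-likelihood test over all 14912 genes with Benjamini-Hochberg adjustment at 0.05, 0 of 10 Hoxb genes passed, where 0.0335% of tested genes passed downward. An unadjusted p under 0.05 was found for 10 of 10, against 6.44% of tested genes in that direction. DESeq2 called 7 of 10 lower with all libraries, where it called 0.981% of genes lower, and left out Hoxb3, Hoxb7 and Hoxb13. Without control replicate 2, edgeR called 9 of 10 lower, all but Hoxb3, where 1.82% of genes passed downward. It called 0 of 10 without control replicate 1, control replicate 3 or pyruvate replicate 1, where 0.0197%, 0.00654% and 0.00666% of genes passed downward, and 0 of 10 without pyruvate replicate 2 or 3, where 0% did. With no low-count filter it called 4 (Hoxb1, Hoxb6, Hoxb8 and Hoxb9), where 0.138% of genes passed downward. With trends in GC content and length removed it called 8, all but Hoxb3 and Hoxb13, where 1.53% passed. DESeq2 without control replicate 2 called 9, all but Hoxb3, where 3.04% passed. Since the genes were picked with this contrast known, nothing is read from these counts.

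Leaving out libraries moved the size. The sign was all but set in advance, since every pyruvate library lay below every control for each gene. Control replicate 2 was the lowest control for 8 of 10 genes and the highest for Hoxb3 and Hoxb4, which are neighbours. Without it the log2 fold change was -1.17 for Hoxb1 (SE 0.13), -0.82 for Hoxb9 (SE 0.101), -0.61 for Hoxb8 (SE 0.058) and -0.27 for Hoxb3 (SE 0.105). Pyruvate replicate 1 was the lowest pyruvate library for 10 of 10 genes, and without it the median log2 fold change was -0.51. Deviations from the group means ran together, with a median Pearson r of 0.76 over the 45 gene pairs across 6 libraries and 35 pairs above 0. The other 10 pairs all held Hoxb3 or Hoxb4, whose control replicate 2 lay above the other controls. Control replicate 2 and pyruvate replicate 1 also stood apart over all tested genes. Pairs of other genes were not measured, so these values do not show a trait of the cluster.

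**Figure D4:**
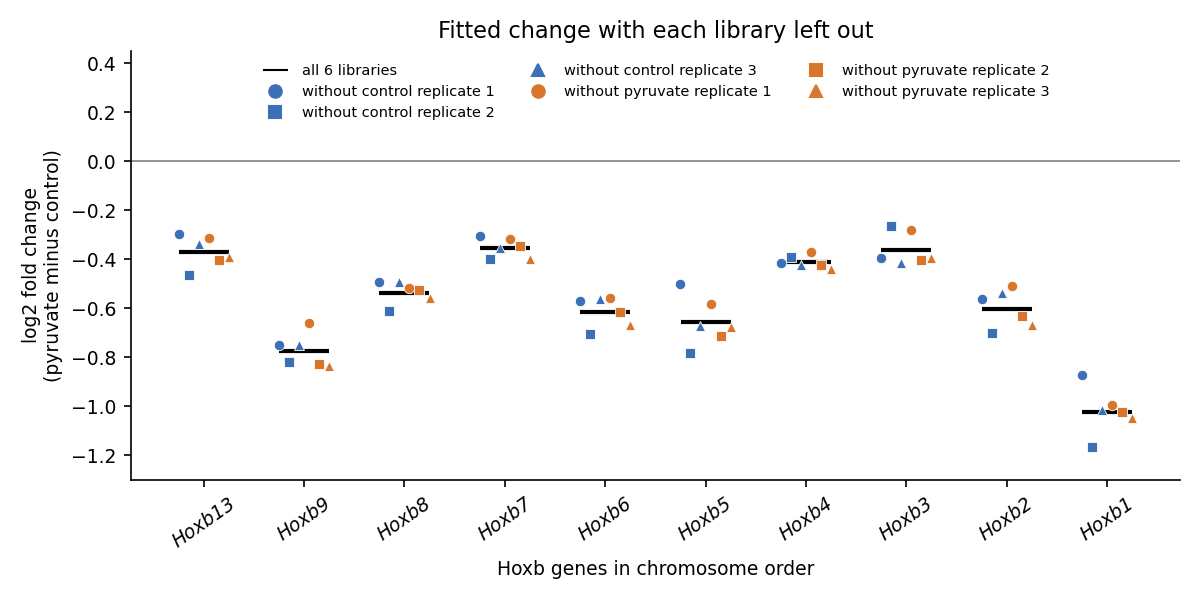
Fitted log2 fold change (vertical axis, pyruvate minus control) of each Hoxb gene with all 6 libraries (black line) and with each library left out in turn (symbols). All values lie below 0, which the separation of the groups all but set in advance. Leaving out control replicate 2 (blue squares) gives the lowest value for 7 of the 10 genes and the highest for Hoxb3.

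Inside the cluster lie noncoding genes as well. Gm53, a long intergenic RNA between Hoxb13 and Hoxb9 (96251105 to 96264868) picked once its values were known, stood at 8.96, 12.6 and 9.88 CPM in control and 4.38, 4.88 and 6.63 CPM in pyruvate (log2 -0.99, SE 0.19, adjusted p = 0.114 by edgeR). Its groups did not overlap, and its control replicate 2 was the highest control. Hoxb3os, antisense to Hoxb2 and Hoxb3 (96343072 to 96354691, minus strand), had means of 16.3 ± 2.12 and 12.4 ± 1.22 CPM (log2 -0.40, SE 0.13, adjusted p = 0.234 by edgeR), and passed without control replicate 2 (adjusted p = 0.0406). Exons of Hoxb2 and Hoxb3 cover 76.2% of it. Hoxb5os had at most 33 counts in a library and overlapped between media. The microRNAs mir-10a and mir-196a of the cluster had no line in the table used.

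Of 19 tested genes within 500 kb outside the cluster, 0 passed edgeR's test and 3 had an unadjusted p under 0.05, as had 14.4% of all tested genes. DESeq2 called 0 of the 14 tested genes in the list of cluster neighbours, which also holds Hoxb3os and Hoxb5os. The median log2 fold change of the 19 flanking genes was -0.02, with 12 below 0. Of these 19 genes, 4 had all pyruvate libraries below all controls and 1 above, against 10.6% and 11.9% of all tested genes. Ttll6, a tubulin-modifying enzyme and the nearest tested flanking gene beyond Hoxb13, stood in the opposite direction to the cluster, with means of 2.16 ± 0.13 CPM in control and 3.48 ± 0.41 in pyruvate (log2 0.69, SE 0.17, adjusted p = 0.150 by edgeR). Skap1, named as the nearest tested gene beyond Hoxb1, had means of 3.75 ± 0.41 and 3.03 ± 0.21 CPM (log2 -0.31, adjusted p = 0.412 by edgeR). The difference between Hoxb and flanking genes was not tested, because the Hoxb genes were picked for this contrast.

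The other Hox clusters fell into 2 kinds. The Hoxc cluster on chromosome 15 was transcribed, with 9 of 9 genes tested, a summed level of 57.1 to 67.7 CPM in control and 34.2 to 48.8 CPM in pyruvate, and a median log2 fold change of -0.60. By edgeR 0 of 9 passed with all libraries. An unadjusted p under 0.05 was found for 6, all lower, against 6.44% of tested genes in that direction. All pyruvate libraries lay below all controls for 6 of 9, as they did for 10.6% of tested genes. DESeq2 with all libraries called 0.981% of genes lower. Of the 9 it called 1 lower, Hoxc4, at 11.9 ± 0.70 and 8.05 ± 1.42 CPM (log2 -0.57, SE 0.15, adjusted p = 0.164 by edgeR and 0.0435 by DESeq2). Without control replicate 2, edgeR called 0 of 9, and DESeq2 called 4 lower, Hoxc4, Hoxc9, Hoxc10 and Hoxc11. Of all genes 1.82% and 3.04% passed downward in these 2 fits. Hoxc11 stood at 6.40 ± 0.71 and 4.23 ± 0.79 CPM (adjusted p = 0.193 by edgeR), and Hoxc9 at 13.2 ± 2.53 and 10.3 ± 1.08 CPM with overlapping libraries. The Hoxa and Hoxd clusters were close to silent. Of 11 Hoxa genes 2 were tested, among them Hoxa10 at 0.81 ± 0.22 and 0.63 ± 0.15 CPM, and 27 counts was the most in any library. Of 9 Hoxd genes only Hoxd8 was tested, at 0.67 ± 0.16 and 0.91 ± 0.16 CPM, and 5 had 3 counts or fewer in each library. Hoxd1 stood at 0.19 ± 0.079 and 0.25 ± 0.058 CPM.

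**Figure D5:**
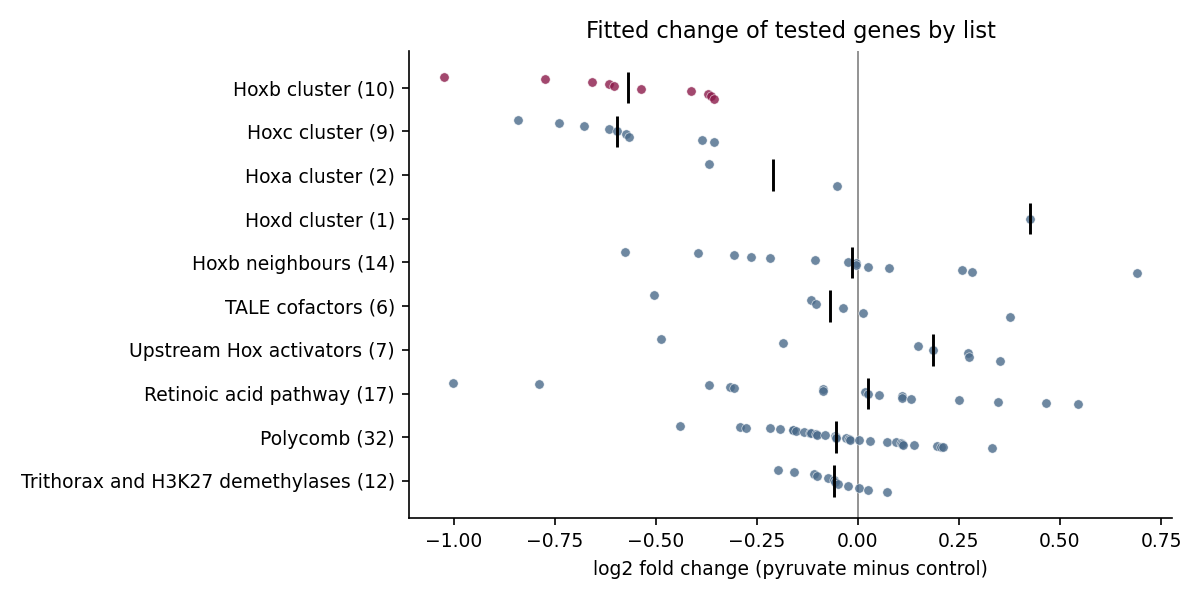
Fitted log2 fold change (horizontal axis, pyruvate minus control) of the tested genes of each list, 1 point per gene with a black line at the list median and the number tested in brackets. The Hoxb and Hoxc points all lie below 0 with medians of -0.57 and -0.60, while the lists of cofactors and regulators lie around 0 with medians from -0.07 to 0.19.

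Among the partners and regulators of Hox genes, 0 passed edgeR's test with all libraries, and other fits called some. Of 9 PBX, MEIS and PKNOX cofactor genes 6 were tested. At an unadjusted p under 0.05, 1 of them was higher and 1 lower, against 14.4% of all tested genes in either direction. Pbx3, a HOX partner, had means of 28.6 ± 0.21 CPM in control and 20.1 ± 1.62 CPM in pyruvate (log2 -0.50, SE 0.094, adjusted p = 0.105 by edgeR). It was called by DESeq2 (adjusted p = 0.00342) and by edgeR without control replicate 2 (0.0232). Pbx4 stood at 5.83 ± 0.25 and 7.55 ± 0.80 CPM (log2 0.38, adjusted p = 0.247 by edgeR). Meis1 and Meis3 had at most 13 counts in any library. Of 11 upstream activators 7 were tested, with 1 lower at an unadjusted p under 0.05, Nr6a1, a nuclear receptor of trunk development (97.2 ± 14.9 and 69.4 ± 1.20 CPM, log2 -0.49, adjusted p = 0.136 by edgeR and 0.0158 by DESeq2). T, the brachyury factor, had a log2 fold change of 0.28 (SE 0.13, adjusted p = 0.368 by edgeR) with overlapping libraries.

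Of 20 retinoic acid pathway genes 17 were tested, with a median log2 fold change of 0.02. At an unadjusted p under 0.05, 2 were lower and 2 higher, against 14.4% of all tested genes in either direction. Rxrg, a receptor partner, stood at 58.2, 46.4 and 55.3 CPM in control and 25.4, 34.9 and 32.2 CPM in pyruvate (log2 -0.79, SE 0.14, adjusted p = 0.0954 by edgeR). It was called without control replicate 2 (adjusted p = 0.00586 by edgeR) and by DESeq2 with all libraries (0.000142). Rdh11, a retinal reductase, had means of 12.1 ± 0.34 and 17.7 ± 1.43 CPM (log2 0.54, SE 0.103, adjusted p = 0.110 by edgeR and 0.00722 by DESeq2). Cyp26a1, which degrades retinoic acid and was picked once its values were known, had means of 4.71 ± 1.08 and 2.35 ± 0.68 CPM (log2 -1.002, SE 0.25, adjusted p = 0.156 by edgeR and 0.0192 by DESeq2).

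All 32 Polycomb genes were tested, with a median log2 fold change of -0.05, and 4 lower and 1 higher at an unadjusted p under 0.05, a threshold that 14.4% of all tested genes passed in either direction. Without control replicate 2, edgeR called 3 lower, Ezh2, Epop and Pcgf2, where 1.82% of all genes passed downward. Ezh2, the methyltransferase of the repressive complex that marks silent Hox genes, stood at 134, 138 and 137 CPM in control and 90.6, 106 and 105 CPM in pyruvate (log2 -0.44, SE 0.084, adjusted p = 0.110 by edgeR). It was called without control replicate 2 (adjusted p = 0.0178 by edgeR) and by DESeq2 with all libraries (0.00365), and 2.61% of its exon sequence overlaps an opposite-strand gene. Phf1, an accessory subunit, had means of 43.0 ± 5.16 and 54.1 ± 2.90 CPM (log2 0.33, adjusted p = 0.225 by edgeR), and 39.3% of its exon sequence overlaps opposite-strand genes. All 12 Trithorax and H3K27 demethylase genes were tested, and 0 had an unadjusted p under 0.05 in edgeR, and DESeq2 called 0. Psip1 stood at log2 -0.16 (adjusted p = 0.538 by edgeR) and Ash2l at -0.07 (adjusted p = 0.648). Psip1 shares 9.5% of its exon sequence with an opposite-strand gene.

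Among the genes whose log2 CPM over the 6 libraries was most like the mean of the 10 Hoxb genes were Eloc, Phykpl, Ddx28 and Tyms, with Pearson r of 0.9966, 0.9953, 0.9939 and 0.9935. They were picked from all tested genes of at least 5 CPM for this likeness, and r is a description over 6 libraries. Eloc, an elongin subunit, stood at 68.6, 61.9 and 65.6 CPM in control and 52.1, 55.0 and 55.6 CPM in pyruvate, with control replicate 2 and pyruvate replicate 1 the lowest of their groups as in most Hoxb genes. Differences of these 4 genes, from -0.50 for Phykpl to -0.21 for Tyms on the log2 scale, were smaller than the Hoxb median.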

How the data were processed

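RNA of 6 libraries of the GS cell line was sequenced after TRIzol and column isolation and a stranded mRNA kit, per the labels' protocols. Values are raw whole-number counts for each gene, as the authors deposited them. Tools named in the submitters' processing notes are STAR 2.7.11a, HTSeq 2.0.5, cutadapt 4.6 and bcl2fastq 2.20, with the build mm10. No source used here gives the annotation release, strand setting or filters. A further 3 columns matched no sample used here, and 0 lines lacked a gene identifier. Symbols were found for 32158 of 32285 genes. Positions and exon lengths are those of GENCODE M21 (GRCm38).

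The test was that of edgeR 4.0.16 in R 4.3.3: filterByExpr with a minimum count of 10, TMM scaling, robust quasi-likelihood test, no covariate, Benjamini-Hochberg adjustment at 0.05. Each standard error is the size of the log2 fold change over the root of its F value. Levels are TMM-normalized CPM, and log2 CPM used a prior count of 2. Alternatives were DESeq2 1.42.0, limma-voom (limma 3.58.1), other scalings and filters, a replicate block and each library left out. Removal of GC and length trends (splines with 5 degrees of freedom) and DESeq2 without control replicate 2 were added after seeing the data.

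The members and lists were chosen with earlier results of these data known. Named are all Hoxb genes; in each other list any gene past the threshold and the 2 of lowest p; the 2 most abundant genes of each marker list and other Hox cluster; and the 5 genes most like the Hoxb mean. Of the genes this rule takes, 2 are not reported here. Others are marked as picked once their values were known; markers at or near 0 and noncoding genes of the cluster are named to account for them. On counts simulated for the 14912 genes of this comparison, the test recovered 91 of 100 genes set to differ 2-fold and 43 of 100 set to differ 1.5-fold, and called 5 others. The simulation gave all genes the same spread and held no library that stood apart, so these figures need not hold for the real libraries. Library pairs within a group differed by more than sampling noise (chi-square per gene 3.07 to 46.8). Each library counted as 1 sample, although this spread does not show that the libraries came from separate cultures. Promoter windows are RefSeq's.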

Additional observations from a re-analysis of the deposited data

How the results depend on the processing

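All 160 log2 fold changes of the 10 Hoxb genes under 16 other settings lay below 0. This was all but set in advance, since every pyruvate library lay below every control for each gene. The settings refit the same libraries, so the 160 values are not independent. Of them 44 passed the threshold, which 0 did in the first fit, and shares over all genes are given below by setting. The median over the 10 genes stayed between -0.66 and -0.50, within the spread between libraries. The number of Hoxb genes called was 0 with limma-voom, DESeq2 size factors, library totals, upper-quartile scaling and a filter of 5 CPM in 3 libraries. In these fits 0.0335%, 0.0335%, 0.0402%, 0.0469% and 0.0459% of genes passed downward. It was 4 with no filter (0.138% of genes), 7 with DESeq2 (0.981%) and 8 with GC and length trends removed (1.53%). It was 9 with DESeq2 without control replicate 2 (3.04%), and 0 to 9 with 1 library left out (0% to 1.82%). Over all genes the count of 8 became 14 with library totals (8 higher, 6 lower), 15 with upper-quartile scaling (8 higher, 7 lower, against 3 and 5 in the first fit), 83 with no filter, 317 with DESeq2, 389 with trends removed, 851 with DESeq2 without control replicate 2, and 0 to 625 with 1 library left out, the highest without control replicate 2. Of the other Hox, cofactor and regulator genes 0 became 1 with no filter (Rxrg), 7 with DESeq2, 6 with trends removed, 13 with DESeq2 without control replicate 2, and 0 to 9 with 1 library left out. The cause was not tested.

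By the longest transcript 6 of 10 Hoxb genes kept their place in the order of levels, 10 with library totals, and 8 to 10 with 1 control library left out.

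Replicate numbers are shared between the media, and the labels do not say whether they pair libraries. Deviations of same-numbered libraries correlated at 0.31, 0.31 and -0.07, and those of differently numbered libraries of unlike media at -0.39 to 0.21. These values cannot settle the pairing, and the first fit used none. With the replicate block 7 of 10 Hoxb genes (all but Hoxb3, Hoxb7 and Hoxb13, where 0.764% of genes passed downward), 265 genes in all and 6 of the other listed genes were called.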
